A study of Mus musculus with 2 samples.

Results

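The 34 genes described here make cholesterol and fatty acids or control how much of them a cell makes. They were chosen by name, and their values are those of the 110 protein-coding transcripts, of 49490 such transcripts in GENCODE M21, whose gene symbol is on the list. The cells were wild-type (WT) DTCM23/49 XY mouse embryonic stem cells (mESC), a pluripotent cell type, kept free of feeder cells on gelatin in medium with fetal bovine serum and leukemia inhibitory factor. RNA made during 10 min was marked with 4-thiouridine (4sU, 200 µM), which replaces some of its uridines, and was separated from the rest on streptavidin beads. The labeled (newly transcribed) and the unlabeled (preexisting) pool have 1 library apiece, both of replicate 1. The title, characteristics and column name of the unlabeled library call it total RNA, whereas its description and the study design call it preexisting, and it is read as unlabeled below unless stated. The authors' paper also treats these data as labeled and unlabeled RNA. With 1 library per pool, no difference below has a replicate check, and no test was made.

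Cholesterol is built from acetyl-CoA through mevalonate, isoprenoid units and squalene, and fatty acids are built from the same acetyl-CoA through malonyl-CoA. Transcription factors of the SREBP family switch on the genes of both routes. They are held in the endoplasmic reticulum membrane with the sterol sensor Scap and the anchor proteins Insig1 and Insig2, and they are carried to the Golgi and cut free when sterols run low. Growing cells need both products for new membrane, and serum supplies part of them, since lipoproteins carry cholesterol into cells.

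For each transcript the table holds an exon value and, where there are introns, an intron value in each pool. These are relative abundances corrected for transcript length, so that levels can be set side by side between genes, in a unit that the authors call TPM but whose column totals are 10-fold higher than those of TPM. The number of reads is not known, so values carry no counting error. A gene's exon value below is the sum over its protein-coding transcripts. Of 21587 protein-coding genes, 14127 had a mean exon value above 1 and a value above 0 in both pools, and all 34 lipid synthesis genes were among them. For each the log2 ratio of the labeled to the unlabeled exon value was centred on the median of the 14127 genes, which was -0.26 before centring. A low ratio would mean that less of a gene's RNA, set against other genes, was made during the 10 min. The ratio also moved with transcript length and level, as given below, and their part in it was not tested.

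The stem cell label was checked first. All 10 stem cell markers passed the minimum, with summed exon values of 11419 in labeled and 15644 in unlabeled RNA, and Tdgf1 was the most abundant at 4574 and 6580. Pou5f1 had 783 and 1198, and Nanog had 1099 and 2416. Of 7 fibroblast markers 3 passed, with values that summed to 8.40 and 20.9, and Thy1 was the highest of them at 6.03 and 14.4. None of the 3 hepatocyte and none of the 3 adipocyte markers passed, which are the cell types in which these pathways are best known. Of the endoderm and mesoderm markers, Gata4, Mixl1 and Eomes passed, each with values under 10. The neural markers Sox1, Neurod1 and Pax6 passed, and Pax6 stood highest at 68.7 and 70.5.

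As a group the lipid synthesis genes were well expressed and lay on the unlabeled side. The exon value was above the median of all genes in 27 of the 34, and the summed exon value was 4370 in labeled and 7807 in unlabeled RNA. In 29 genes (85.3%) the exon value was higher in unlabeled RNA, where 58.7% of all genes were, and in 5 it was higher in labeled RNA. The median centred log2 ratio was -0.51, with quartiles of -0.87 and -0.08, where all genes had quartiles of -0.68 and 0.84. It was below the all-gene median in 27 genes and above it in 7. By the 2-fold rule, 2 of 34 genes (5.88%) lay above, where 21.9% of all genes did, and 7 (20.6%) lay below, where 14.8% of all genes did. Without centring, 2 members and 17.4% of all genes lay above, and 11 members and 22.7% of all genes lay below. With centring within deciles of spliced length, 4 members (11.8%) lay below, where 14.0% of all genes did. Within deciles of level, 5 members (14.7%) lay below, where 14.2% of all genes did. Glycolysis genes, a set of steady housekeeping enzymes given for scale, had a median of -0.09 over 15 genes with 1 past 2-fold below, and 11 immediate early genes had a median of 0.04 with 2 above and 1 below. The 10 stem cell markers had a median of -0.78, lower than that of the lipid synthesis genes, with 1 above and 3 (30.0%) below. A lean to the unlabeled side was thus not particular to the lipid synthesis genes.

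**Figure D1:**
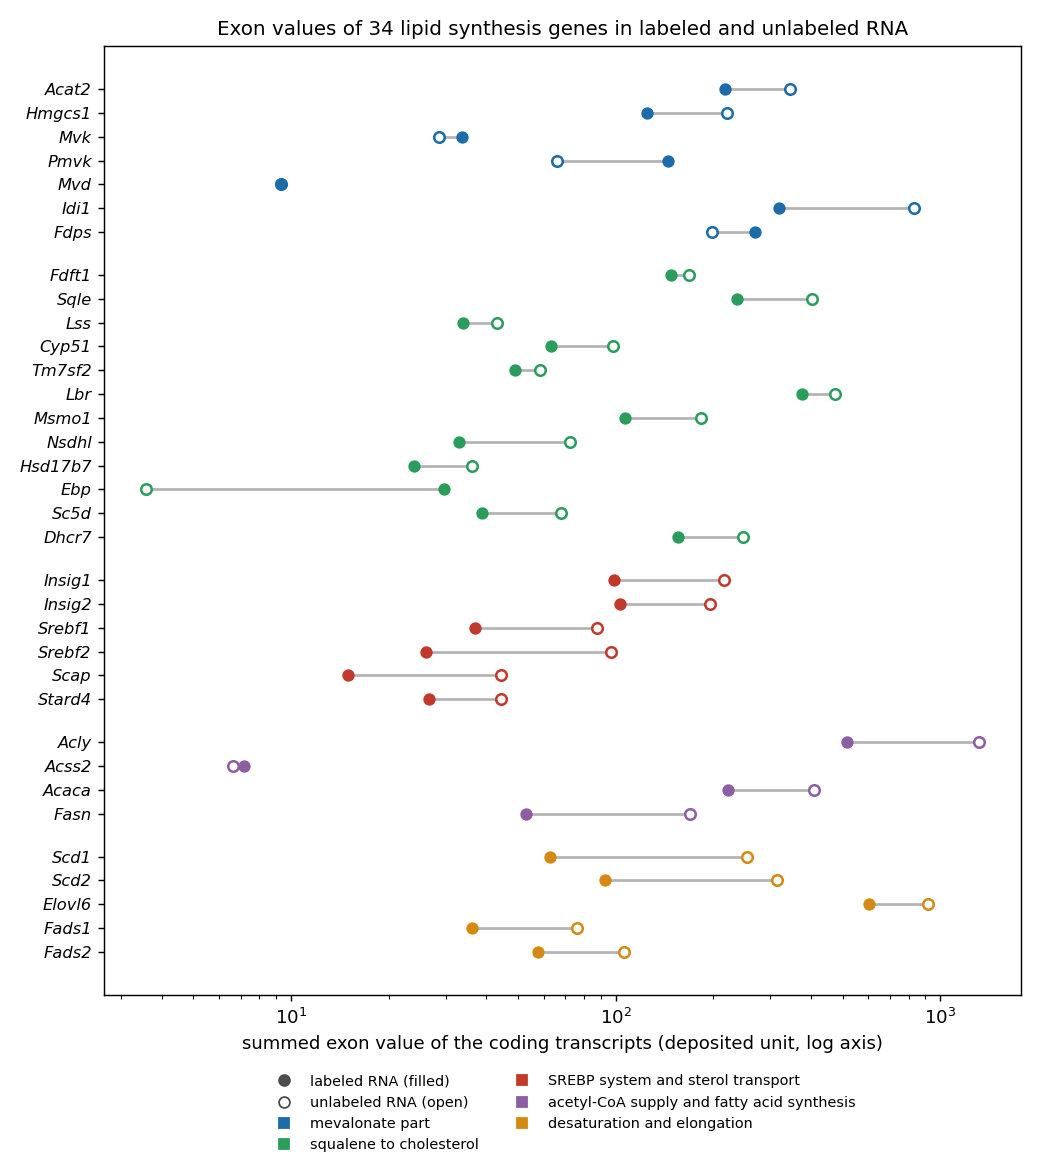
Summed exon values of the 34 genes in labeled (filled) and unlabeled (open) RNA, on a log axis in the deposited unit, with genes ordered and coloured by role and 1 library behind each point. The unlabeled value is the higher in 29 genes (85.3%, all genes 58.7%), and the widest gap in the other direction is that of Ebp, at 29.7 labeled and 3.58 unlabeled.

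Along the route the ratio differed by role. The 7 genes of the mevalonate part had a median centred log2 ratio of 0.25, and the 12 genes from squalene to cholesterol had -0.36. The 6 genes of the SREBP system and sterol transport had -0.93, the 4 genes of acetyl-CoA supply and fatty acid synthesis -0.86, and the 5 genes of desaturation and elongation -0.81. The sign of the mevalonate median depended on the scaling, since it was -0.00 without centring, and it was 0.02 with centring within deciles of length or of level. The medians of the other roles were negative under all 11 alternatives, but the medians and the differences between roles changed with centring within deciles. Within deciles of length, the medians were -0.34 from squalene to cholesterol, -0.70 in the SREBP system and sterol transport, -0.40 in acetyl-CoA supply and fatty acid synthesis and -0.49 in desaturation and elongation. Within deciles of level, they were -0.07, -0.79, -0.41 and -0.78.

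The mevalonate part starts with the thiolase Acat2, which joins acetyl-CoA units and had exon values of 217 in labeled and 344 in unlabeled RNA. Hmgcs1, the synthase that makes HMG-CoA, followed with 125 and 220. Both had ratios a little under the all-gene median, at -0.41 and -0.56. The kinases behaved otherwise. Mvk, mevalonate kinase, had 33.7 and 28.5, a centred log2 ratio of 0.50, and Pmvk, phosphomevalonate kinase, had 145 and 65.8, which is 2.63-fold above the all-gene median. Mvd, the decarboxylase that ends this run of steps, was low and level at 9.33 and 9.35. Idi1, the isomerase that balances the isoprenoid building blocks, was the most abundant gene of this part at 319 and 832, and lay 2.19-fold below the median. Fdps, which joins these blocks to farnesyl diphosphate, had 268 and 198, a centred log2 ratio of 0.69.

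Introns give a second view of the same genes, because an intron marks RNA that is not yet spliced. The intron value of Pmvk was 43.2 in labeled and 21.2 in unlabeled RNA, so its intron to exon ratio was 0.299 and 0.322. The ratio was thus similar in both pools, unlike that of the median gene, at 0.577 in labeled and 0.122 in unlabeled RNA. The coding transcripts of Pmvk ranged from 0.131 and 0.128 in Pmvk-204 to 0.864 and 1.30 in Pmvk-202. Mvd had intron values of 1.57 and 2.11, and its ratio too was higher in unlabeled RNA, at 0.168 and 0.226. Mvk had intron values of 28.8 and 2.77 and ratios of 0.856 and 0.0973. Fdps had intron values of 51.4 and 11 and ratios of 0.192 and 0.0556, so that its labeled ratio was below that of the median gene.

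Squalene synthase, Fdft1, takes farnesyl diphosphate into the sterol branch and had exon values of 148 and 168. Its centred log2 ratio of 0.07 was the fifth highest of the members with a mean exon value of at least 10, and its sign turned to -0.19 without centring. The intron values of Fdft1 were 38.8 and 7.95, with ratios of 0.263 and 0.0473. Sqle, the squalene epoxidase that opens the oxygen-dependent steps, had exon values of 237 and 403. Lss, which closes the ring to lanosterol, had 34 and 43.0, and Cyp51, the lanosterol demethylase, had 63.4 and 98.3. The methyl groups of the ring are removed with the help of Msmo1 (107 and 183), Nsdhl (32.9 and 72.2) and Hsd17b7 (23.9 and 36.2). The last steps are those of Sc5d, a desaturase (38.7 and 67.9), and Dhcr7, a reductase (156 and 246). All of these were higher in unlabeled RNA, with centred log2 ratios from -0.88 in Nsdhl to -0.08 in Lss, and none was past 2-fold.

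The exception among the sterol enzymes was Ebp, the isomerase that moves the ring double bond. The gene lies at chrX:8185329-8193512 on the minus strand (GRCm38). Its exon value was 29.7 in labeled and 3.58 in unlabeled RNA, 9.90-fold above the all-gene median, and higher than the ratio of 97.7% of genes. The intron value was 29.0 in labeled and 7.56 in unlabeled RNA. Introns therefore outweighed exons in the unlabeled pool, with a ratio of 2.11, and were level with them in the labeled pool, at 0.979. In Ebp-201 alone the ratios were 1.03 in unlabeled and 0.660 in labeled RNA, since the sums include the introns of Ebp-203. Of the 2 coding transcripts, Ebp-201 had exon values of 23.4 and 3.58, and Ebp-203 had 6.24 and is listed at 0 in unlabeled RNA. The 2 non-coding transcripts of the gene had the same pattern, with summed exon values of 49.2 and 5.20. Ebp lay past 2-fold above the median under all 11 alternatives.

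Tm7sf2 and Lbr both reduce the sterol ring at the same step, Lbr as a protein of the inner nuclear membrane. Lbr was the more abundant, with exon values of 376 and 475, where Tm7sf2 had 49.1 and 58.7. Their centred ratios were near the median, at -0.08 in Lbr and -0.00 in Tm7sf2, and the signs changed with the centring. With the most abundant transcript alone, they were -0.58 in Lbr and -1.05 in Tm7sf2, the latter past 2-fold below. Their introns differed more. The intron values of Lbr were 207 and 38.1, with ratios of 0.551 and 0.0803, and those of Tm7sf2 were 57.7 and 61.2, with ratios of 1.17 and 1.04. Tm7sf2 thus had as much intron as exon value in either pool. It overlaps Vps51 on the same strand by 532 bases, and Vps51 had exon values of 80.3 and 79.6. The part of this overlap in the values was not tested.

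The regulators of the pathway were moderate in level and leaned to the unlabeled pool. Srebf2, which encodes the SREBP best known for cholesterol genes, had an exon value of 26.0 in labeled and 96.8 in unlabeled RNA. That is 3.12-fold below the all-gene median, and 4.02% of genes had a ratio this low or lower. The centred log2 ratio of -1.64 became -3.48 with possible leakage of unlabeled RNA into the labeled pool subtracted. The leakage share was set at 0.211 of the unlabeled value. It is percentile 1 of the labeled to unlabeled ratios in these same data, over genes with a mean of at least 10. Subtraction therefore lowers the lowest ratios most by construction. With centring within deciles of length it was -1.22. The intron values of Srebf2 were 21 and 7.17, with ratios of 0.808 and 0.0741. Srebf1, the relative best known for fatty acid genes, had exon values of 36.9 and 87.7, and at 1.99-fold below the median it lay just inside the 2-fold line. The intron values of Srebf1 were 13.4 and 4.83, with ratios of 0.362 and 0.0551. Scap, the escort of both factors, had exon values of 15.0 and 44.4, 2.48-fold below the median. Its intron value of 19.1 in labeled RNA was above its exon value, a ratio of 1.27, and it fell to 1.38 in unlabeled RNA, a ratio of 0.0311. By summed values, no other member had so wide a gap between the ratios of the pools, which was 40.8-fold in Scap. Its most abundant transcript alone, Scap-201, had ratios of 0.642 and 0.0310, a narrower gap than the 29.0-fold of Insig1.

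Insig1 and Insig2, which hold Scap back, had nearly equal exon values. Insig1 had 98.9 in labeled and 216 in unlabeled RNA, and Insig2 had 103 and 196. Centred log2 ratios were -0.87 and -0.67, but that of Insig2 was 0.23 when its most abundant transcript alone was used. The genes differed in intron content. Insig1 had intron values of 32.5 and 2.44, with ratios of 0.328 and 0.0113, and Insig2 had 140 and 25.2, with ratios of 1.36 and 0.129. Insig1, a gene with 1 coding transcript in the table, thus had the lower ratio in both pools. Of the 13026 genes with intron values above 0 in both pools, 4.31% had an unlabeled ratio as low as that of Insig1 or lower. Insig2 is split over 11 coding transcripts, 3 of which are listed at an exon value of 0 in labeled RNA. Stard4, which carries cholesterol between membranes, had exon values of 26.6 and 44.4.

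Acetyl-CoA for both routes is supplied in the cytosol by Acly, which cleaves citrate, and by Acss2, which activates acetate. They stood at the ends of the range of levels. Acly had the highest mean exon value of the 34 genes, with 517 and 1315, and lay 2.13-fold below the all-gene median. Acss2 was the least abundant by mean exon value, with 7.19 and 6.63. By summed values its introns outweighed its exons in both pools, with ratios of 2.13 and 1.06. In unlabeled RNA the ratio was 0.744 in Acss2-201 and 0.815 in Acss2-203, its most abundant forms, and 1.69 in Acss2-202. Acaca, the carboxylase that commits acetyl-CoA to fatty acids, had exon values of 222 and 408. Fasn, the multifunctional synthase that builds palmitate, had 53.0 and 170, which is 2.69-fold below the median. Its introns were nearly gone in either pool, with values of 2.44 and 0.340 and ratios of 0.0460 and 0.00200, both the lowest of the 34 genes. Of the 13026 genes with intron values above 0 in both pools, 2.32% had a labeled ratio and 0.453% an unlabeled ratio that low or lower. Genes with an intron value of 0 were left out of these shares.

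The desaturases Scd1 and Scd2, which place the first double bond in saturated fatty acids, had the lowest and the third lowest ratio of the set. Scd1 had exon values of 62.7 and 254, 3.39-fold below the median, and Scd2 had 92.9 and 314, 2.82-fold below it. With possible leakage subtracted, their centred log2 ratios moved from -1.76 to -4.17 and from -1.50 to -2.92. A large fall is built into this setting for genes of low ratio. Scd1 and Scd2 lie near each other at chr19:44394455-44407879 and chr19:44293674-44306864. The genes differed in introns: Scd1 had intron values of 11.4 and 2.91 with ratios of 0.183 and 0.0115, and Scd2 had 63.9 and 18.1 with ratios of 0.687 and 0.0576. They share a stretch of 623 bases at 95.5% identity, so the split of reads between them is uncertain. Elovl6, which lengthens palmitate, had the highest labeled exon value of the members, with 603 in labeled and 920 in unlabeled RNA and a centred log2 ratio of -0.35. The desaturases of polyunsaturated fatty acids, Fads1 and Fads2, are neighbours on the same chromosome. Fads1 had exon values of 36.1 and 75.8, and Fads2 had 57.8 and 106. The intron values of Fads1 were 6.03 and 1.53, with ratios of 0.167 and 0.0202, and those of Fads2 were 28.7 and 2.70, with ratios of 0.496 and 0.0256. Their unlabeled ratios were thus alike, and the labeled ratio was higher in Fads2.

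Length moved with these ratios. Over all genes the median centred log2 ratio was 0.43 in the decile with the shortest spliced transcripts and -0.49 in the decile with the longest. Across the 34 members, which are not independent replicates, Spearman's correlation of the ratio with spliced length was -0.653, and across all genes it was -0.294. The most abundant coding transcript had a median of 2896 bases in the members and 2329 in all genes. Level moved too: the median ratio was 0.77 in the decile of genes with the lowest mean exon value and -0.47 in the decile with the highest. With centring within deciles of length, 1 member (2.94%) lay past 2-fold above and 4 (11.8%) below, where 19.3% and 14.0% of all genes did, with a median of -0.48. With centring within deciles of level, 3 (8.82%) lay above and 5 (14.7%) below, where 19.6% and 14.2% of all genes did, with a median of -0.27. The share of members below was thus no longer above that of all genes within deciles of length, and was close to it within deciles of level. Scd1, Scd2 and Srebf2 lay past 2-fold below under both, Nsdhl did within deciles of length, and Fasn and Scap did within deciles of level. Acly and Idi1 did under neither. Of the genes above, Ebp stayed past 2-fold under both, Pmvk did not within deciles of length (0.79), and Fdps passed it within deciles of level (1.11). Uridines, where 4sU enters, made up a median of 25.3% of the bases in members and 24.1% in all genes. The part of length and level in the ratios of single genes was not tested.

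**Figure D2:**
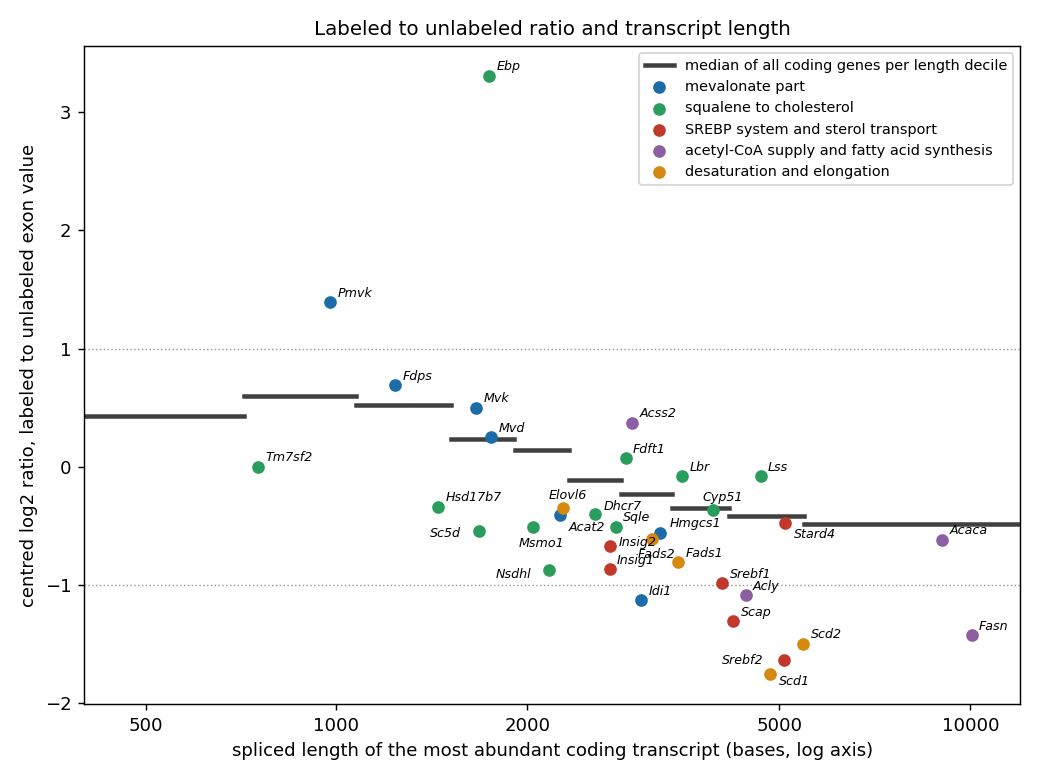
Centred log2 ratio of labeled to unlabeled exon value of each of the 34 genes, against the spliced length in bases (log axis) of its most abundant coding transcript; bars are medians of all coding genes per decile of length (the outer bars are clipped by the axis) and dotted lines mark 2-fold. Ratios fall with length, and Ebp stands far above the bar at its length while Scd1, Scd2 and Srebf2 stand below theirs.

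Intron to exon ratios within a pool do not depend on how the pools were scaled to each other. The median ratio of the 34 genes was 0.505 in labeled and 0.0616 in unlabeled RNA, where 13026 genes with intron values above 0 in both pools had 0.577 and 0.122. In labeled RNA 20 of 34 genes were below the all-gene median, and in unlabeled RNA 26 were. A low unlabeled ratio was not particular to the members. Its median was 0.0292 in 14 glycolysis genes, 0.0439 in 6 immediate early genes and 0.0236 in 8 stem cell markers. It was 0.0981 in the other genes of lipid metabolism listed below. The labeled ratio was the higher in 31 members, and Pmvk, Mvd and Ebp were the exceptions, 3 of 34 where 9.03% of all genes were. A labeled ratio of 1 or more was found in Tm7sf2, Insig2, Scap and Acss2, 4 of 34 where 28.9% of all genes had one. These ratios are of values summed over transcripts. In the most abundant transcript alone, the labeled ratio was 0.531 in Insig2, 0.642 in Scap and 1.34 in Acss2. That of Tm7sf2, Tm7sf2-205, is listed at an intron value of 0 in both pools. Subtraction of possible leakage of unlabeled RNA into the labeled pool raised the median labeled ratio to 0.766.

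**Figure D3:**
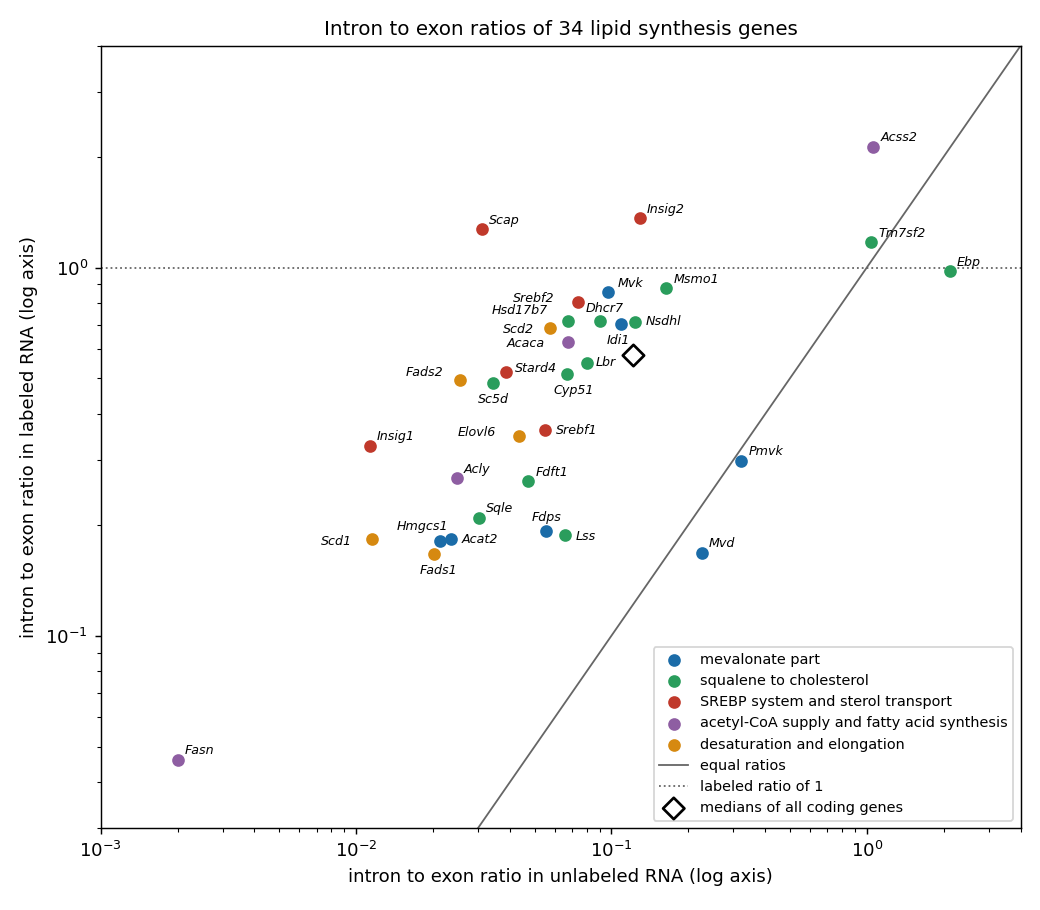
Intron to exon ratio of the 34 genes in labeled against unlabeled RNA, both on log axes, coloured by role, with the line of equal ratios, the labeled ratio of 1 and the medians of all coding genes (diamond, 0.577 and 0.122). Fasn lies lowest at 0.0460 and 0.00200, and Pmvk, Mvd and Ebp lie under the line of equal ratios.

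The ratios of both pools give rates of processing and degradation in a model in which RNA is made, spliced and degraded at constant rates. It can be solved for a transcript whose unlabeled ratio is below its labeled ratio and whose labeled ratio is below 1. Of the 102 member transcripts that had nonzero exon and intron values and passed the minimum, 73 met this, a share of 71.6%, where 66.7% of all 31386 coding transcripts did. Of the others, 22 had a labeled ratio of 1 or more and 7 an unlabeled ratio at or above the labeled ratio. An exact solution existed for 46 of the 73. The remaining 27 were fitted to the observed ratios with the model's variables tied to each other. Their rates are therefore not the nearest with both variables free, a fit given below as an alternative. Among genes with rates given below, they include all fitted transcripts of Insig1, Fasn, Scd1, Fads1, Fdft1, Pmvk and Tm7sf2. They also include some of those of Fdps, Lbr and Srebf1. Rates were obtained for 31 of the 34 genes, and Mvd, Ebp and Acss2 had none.

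The median degradation half-life of the 31 genes was 22.8 min and the median processing half-life was 3.79 min. The degradation value depended on how the second library was read. It rose to 71.7 min when that library was taken as total RNA, as its title, characteristics and column name call it, and it was 8.19 min when the model's variables were fitted together for transcripts without an exact solution. The rates are therefore given as the model's output for these libraries. The shortest degradation half-life was that of Insig1, at 5.19 min, with a processing half-life of 1.62 min, but under the total RNA reading Insig1 had 209 min. With both variables fitted, Insig1 had 5.05 min and was not the shortest, since Tm7sf2 had 1.62 min. By the main fit, Insig2 had 12.3 min, with a processing half-life of 5.71 min. It had 48.6 min under the total RNA reading, which turns the order of Insig1 and Insig2. The longest were those of Scap, at 145 min with 11.7 min for processing, and Srebf2, at 124 min with 15.4 min for processing. The value of Scap comes from 2 of its 5 coding transcripts, of which Scap-208, with a labeled ratio of 0.968 near the model's limit, had 3147 min and Scap-201 had 83.9 min. The summed labeled ratio of Scap, 1.27, could not be fitted. Srebf1 lay between, at 29.7 and 4.74 min. Under the total RNA reading, degradation took 373 min in Scap, 194 min in Srebf2 and 107 min in Srebf1. With both variables fitted, Srebf1 had 10.0 min, and Scap and Srebf2 stayed at 145 and 124 min.

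Among the genes with low ratios, Fasn had a degradation half-life of 69.2 min with 1.98 min for processing, and Scd2 had 61.4 min with 8.33 min for processing. Scd1, the lowest of all by exon ratio, had 20.5 and 2.34 min. Among those with high ratios, Pmvk had 52.1 min for degradation and 7.74 min for processing, from 1 of its 4 coding transcripts, and Mvk had 55.2 and 9.92 min. Fdps had 23.5 and 3.62 min, and Fdft1 had 16.1 and 3.29 min. The degradation values of these genes changed with the reading, and so did their order. Taken as total RNA, the second library gave 156 min for Fasn, 139 min for Scd2 and 107 min for Scd1, and 1.82 min for Pmvk, 111 min for Mvk, 20.4 min for Fdps and 35.2 min for Fdft1. With both variables fitted, Pmvk had 2.33 min, Fdps 3.76 min, Fdft1 3.29 min, Fasn 8.19 min and Scd1 5.16 min, and Mvk and Scd2 did not move. No relation between exon ratio and half-life is therefore drawn from them. For the pairs, Lbr had 7.69 and 3.0 min and Tm7sf2, from 1 of its 9 coding transcripts, 9.01 and 4.70 min, and Fads1 had 24.8 and 2.83 min and Fads2 30.3 and 4.00 min. Under the total RNA reading, degradation took 42.5 min in Lbr and 11.6 min in Tm7sf2, and 53.7 min in Fads1 and 162 min in Fads2. With both variables fitted, the values were 3.66 min in Lbr, 1.62 min in Tm7sf2, 4.42 min in Fads1 and 30.3 min in Fads2, so that the order of Lbr and Tm7sf2 turned under both.

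In 18 genes at least 2 coding transcripts each held 20% or more of the summed exon value. The centred log2 ratios of these transcripts differed by at most 0.14 in Acat2 (Acat2-201 and Acat2-203), Acly (Acly-201, Acly-203 and Acly-207), Dhcr7 (Dhcr7-201 and Dhcr7-202), Elovl6 (Elovl6-201, Elovl6-202 and Elovl6-205), Hsd17b7 (Hsd17b7-201 and Hsd17b7-202), Mvk (Mvk-201 and Mvk-202), Pmvk (Pmvk-201, Pmvk-203 and Pmvk-204), Sc5d (Sc5d-201 and Sc5d-202) and Acaca (transcripts 201 and 202). Others spread more. Sqle-201 and Sqle-202 differed by 0.33, the transcripts Fdps-201, Fdps-202 and Fdps-203 by up to 0.43, and Idi1-201, Idi1-203, Idi1-204 and Idi1-205 by up to 0.45. Spreads of 0.63 to 0.89 were found in Msmo1 (Msmo1-201, Msmo1-205 and Msmo1-207), Acss2 (Acss2-201, Acss2-202 and Acss2-203), Srebf1 (Srebf1-201, Srebf1-203 and Srebf1-207) and Scap (Scap-201, Scap-205 and Scap-208).

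Among transcripts with at least 20% of a gene's value, the widest differences were those of Lbr and Stard4. In Lbr, the transcript Lbr-201 of 3510 bases had exon values of 85.7 and 158, a centred log2 ratio of -0.63. Lbr-205, with 648 bases, had 129 and 82.8, a ratio of 0.90. In Stard4, the transcript Stard4-201 of 5097 bases had 12.4 and 31.7, a ratio of -1.09, and Stard4-203 of 941 bases had 9.09 and 7.92, a ratio of 0.46. In these pairs the longer form leaned to unlabeled RNA and the shorter form to labeled RNA. A further short form, Lbr-207, with 606 bases and under 20% of the value, had 14.0 and 111, a ratio of -2.73. The part of length was not tested, and the split of values among overlapping transcripts is uncertain. Wider differences were found among transcripts with smaller shares, such as 0.59 in Insig2-214 and -3.58 in Insig2-212. In Srebf1, Srebf1-207 had the lowest ratio at -1.49, with exon values of 7.56 and 25.4, and Srebf1-203 the highest at -0.75, with 15.5 and 31.2.

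Non-coding transcripts were left out of these sums, and they held a large share in some genes. In 8 of the 34 genes they took over 50% of the exon value in both pools. This count has no share over all genes beside it and is not read as particular to these genes. In Fasn they had 82.1 in labeled and 286 in unlabeled RNA, and in Acly 458 and 1579. These leaned to the unlabeled pool as the coding transcripts did, and with the transcripts of all biotypes summed the median centred ratio of the members was -0.50. In Insig1 the share of the non-coding transcript was 61.0% in labeled and 43.4% in unlabeled RNA.

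Reads of some members may be shared with other genes. Of the 34 genes, 8 had a stretch of at least 200 bases at 95% identity or more in a transcript of a gene elsewhere: Acaca, Acat2, Elovl6, Fdft1, Fdps, Idi1, Scd1 and Scd2. The values of these genes are uncertain to that extent. The best matched of those with exon values was Idi1, which shares 684 bases at 100% identity with the processed pseudogene Gm13502, at 81.3 and 274. Acat2 shares 1477 bases at 97.7% with its paralog Acat3, at 380 and 425, and 445 bases at 98.7% with Tcp1, at 3619 and 5555. Fdps shares 1062 bases at 98.9% with Gm3571, at 92.6 and 55.8. A gene above the minimum overlapped the locus of 12 members, such as Ctsb at the end of Fdft1, Gss in Acss2 and Akap9 at Cyp51. Whether the authors' counting used strand is not given in the sources used here.

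Other genes of lipid metabolism, on lists of 61, had a median nearer to that of all genes, but the lists differed. Of the 61, 58 passed the minimum, 8 (13.8%) lay past 2-fold above and 10 (17.2%) below, where 21.9% and 14.8% of all genes did, with a median centred log2 ratio of -0.17. In the isoprenoid branch 4 of 9 (44.4%) lay above: Dhdds (160 and 34.8) and Pdss1 (167 and 54.4), which make long isoprenoid chains, Fnta (148 and 80.5), a subunit of protein prenyltransferases, and Idi2 (3.45 and 1.24), the paralog of Idi1. Pggt1b was not analysed here. In SREBP processing and sterol sensing none of 9 lay above and Mbtps1, the protease that makes the first cut in SREBPs, lay below with 68.5 and 187. Nr1h3 was under the minimum. In cholesterol transport and storage none of 9 lay above and Abcg1, an exporter of sterols, lay below with 4.65 and 13.8.

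Fatty acid supply had genes on both sides, and its median of -0.63 was lower than that of the members, with 30.8% below, where 14.8% of all genes lay below. Of 13 genes, Mecr (21.4 and 3.54), an enzyme of mitochondrial fatty acid synthesis, Thrsp (2.09 and 0.190) and Fabp5 (66.2 and 19.0), a fatty acid binding protein, lay above. Below lay the citrate carrier Slc25a1 (32.1 and 112), the acyl-CoA synthetase Acsl4 (129 and 347), the mitochondrial synthase Oxsm (9.42 and 25) and Mid1ip1 (40.3 and 136). Among 11 elongases, desaturases and enzymes of the elongation cycle none lay above (median -0.31), and Elovl5 (83.3 and 292), Hsd17b12 (33.9 and 122) and Scd3 (32.9 and 115) lay below. Scd3 had a centred log2 ratio of -1.55, next to those of Scd1 and Scd2 at -1.76 and -1.50. In glycerolipid synthesis, Dgat1 (8.82 and 4.45), which makes triglycerides, lay above, Gpam (4.23 and 11.1), which adds the first acyl chain to glycerol phosphate, lay below, and Dgat2 was under the minimum.

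Matches to 3 short motifs were counted in the promoters of these genes. RefSeq windows (GRCm38.p6) from 250 bases before to 50 after the start were matched for 27 of the 34 genes. CCAAT, the letters of the NF-Y box, was found on either strand in 22 of the 27 genes (81.5%), where 43.4% of the 10940 coding genes above the minimum with such a window had it. GGGCGG, the Sp1 box, was found in 23 (85.2%), where 65.9% of those genes had it. TCACNCCAC, the core of the sterol regulatory element, was found in Hmgcs1 alone (3.70%), where 1.44% of those genes had it. Over all 27025 RefSeq genes with a window, of any kind and level, the shares were 41.1%, 38.2% and 1.44%. A match describes the sequence and is not a shown binding site. Only exact matches were counted, so a window without a match is not shown to lack a site. The windows before the start are given for Hmgcs1, for the 2 lowest exon ratios with a window, Srebf2 and Fasn, and for the highest, Ebp, with all 3 motifs on either strand in capitals. Their positions are chr13:119690101-119690350 (plus strand), chr15:82147019-82147268 (plus), chr11:120824548-120824797 (minus) and chrX:8193513-8193762 (minus). The starts are those of RefSeq. In GENCODE, Srebf2-201 starts at chr15:82147181, so the end of the Srebf2 window lies within that transcript.
Hmgcs1: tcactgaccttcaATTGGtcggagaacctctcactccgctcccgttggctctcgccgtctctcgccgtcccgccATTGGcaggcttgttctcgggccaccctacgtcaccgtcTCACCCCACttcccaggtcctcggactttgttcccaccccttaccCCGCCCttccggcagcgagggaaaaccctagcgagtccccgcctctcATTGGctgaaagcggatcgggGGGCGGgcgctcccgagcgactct
Srebf2: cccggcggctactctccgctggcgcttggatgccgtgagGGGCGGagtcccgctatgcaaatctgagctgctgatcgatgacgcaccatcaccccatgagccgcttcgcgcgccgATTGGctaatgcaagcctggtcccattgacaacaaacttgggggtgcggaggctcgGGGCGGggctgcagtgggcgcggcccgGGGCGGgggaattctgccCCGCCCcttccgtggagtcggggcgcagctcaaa
Fasn: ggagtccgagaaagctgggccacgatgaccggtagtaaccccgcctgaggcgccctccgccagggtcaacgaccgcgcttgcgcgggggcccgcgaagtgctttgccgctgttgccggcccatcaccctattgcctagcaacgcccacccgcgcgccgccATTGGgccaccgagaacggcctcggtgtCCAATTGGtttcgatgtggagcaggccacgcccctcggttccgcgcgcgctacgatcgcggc
Ebp: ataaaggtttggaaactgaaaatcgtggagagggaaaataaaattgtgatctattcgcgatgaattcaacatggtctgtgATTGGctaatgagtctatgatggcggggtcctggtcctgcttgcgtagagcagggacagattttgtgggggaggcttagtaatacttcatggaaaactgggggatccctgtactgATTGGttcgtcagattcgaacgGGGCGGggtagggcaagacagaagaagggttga
Hmgcs1 has 1 sterol element, 3 CCAAT and 2 GGGCGG matches in this stretch, and Srebf2 has 1 CCAAT and 4 GGGCGG. Fasn has 3 CCAAT matches and no GGGCGG, and Ebp has 2 CCAAT and 1 GGGCGG.

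Srebf2 also hosts a miRNA. The hairpin of Mir33 lies in intron 16 of 18 of Srebf2-201, at chr15:82198122-82198190, and mature miR-33 is known to act on transcripts of cholesterol exporters. The gene is listed at an exon value of 0 in both pools, in a table of long transcripts that would not hold a mature miRNA. The 5p arm (seed, bases 2 to 8, in capitals) reads as follows in RefSeq.
mmu-miR-33-5p: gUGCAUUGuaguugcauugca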

How the data were processed

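Exon and intron abundances of transcripts were measured in 2 RNA-seq libraries of 1 culture of mouse embryonic stem cells, labeled and unlabeled RNA after 10 min of 4sU. The authors aligned reads without rRNA to exonic and intronic sequences (mm10/GRCm38) with STAR 2.5.0 and quantified them with RSEM. The deposited signal was taken by the design to be TPM, but each column sums to 10 times that total. Transcripts were joined to GENCODE M21 (90.9% found). Exon values of protein-coding transcripts were summed per gene, kept with a mean above 1, and the log2 ratio was centred on the median of all coding genes. Rates were solved for each transcript. The solver was tested on noise-free ratios simulated from the model, which does not cover transcripts without an exact solution. No test was made. Read depth is not given. All 34 members are named with exon values. Intron values and rates are given for the 5 highest and 5 lowest exon ratios with a mean of at least 10, for Srebf1, Srebf2, Scap, Insig1 and Insig2, and for 3 pairs (Scd1 and Scd2, Fads1 and Fads2, Tm7sf2 and Lbr). Transcripts are named in genes where 2 or more hold at least 20% of the value, and other listed genes are named when past 2-fold. Genes and transcripts singled out beyond this were chosen after their values were seen. Members and lists were chosen with earlier results of these data known. Alternatives were the most abundant transcript, all biotypes, pseudocounts of 0.1 and 1, minimums of 0 and 10, leakage subtraction, other centring and other forms of the model. Centring within length and level deciles was chosen after seeing the data. Work was done with scipy 1.17.1, numpy 2.4.6, pandas 2.3.3 and matplotlib 3.10.9 in Python 3.11.15, and with blastn 2.17.0.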

Additional observations from a re-analysis of the deposited data

How the results depend on the processing

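The median centred ratio of the members was negative under all 11 alternatives, from -0.78 to -0.27. Counts were held to have kept their size within 1.5 times, the compatible share within its 95% Wilson interval (which counts transcripts as independent, although they share genes, reads and libraries), and log2 values within 0.58. The count of 7 genes below the median (20.6%, all genes 14.8%) became 12 with leakage subtracted (35.3%, all genes 24.5%), 11 without centring (32.4%, all genes 22.7%) and 4 with centring within length deciles (11.8%, all genes 14.0%), where the count of 2 above became 1. Within level deciles the counts were 3 above and 5 below (14.7%, all genes 14.2%). Under these 2 the share below was thus lower than or near that of all genes. Without centring the median of all genes is -0.26, which accounts for a shift of that size. Scaling to equal exon totals leaves it at -0.11. The leakage share was taken from the lowest exon ratios of these data, so its subtraction moves the lowest genes most by construction. Leakage subtraction took the median labeled intron to exon ratio from 0.505 to 0.766 and the compatible share from 71.6% to 52.0%, and a minimum of 10 took the share to 86.7% with fewer transcripts. The median degradation half-life of 22.8 min became 71.7 min with the second library read as total RNA and 8.19 min with Eq. 15 minimised over both variables. Otherwise the cause was not tested. The sign of the ratio changed under at least 1 alternative in Mvd, Fdft1, Acss2, Lss, Lbr, Tm7sf2, Elovl6, Acat2, Dhcr7 and Insig2. Pairs of libraries could not be compared, since each pool holds 1 library, and the error of low values is unknown because read depth is.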
